A study of Mus musculus with 52 samples.

Results

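CTCF binding sites that differed between female mouse embryonic fibroblasts with wild-type SmcHD1 (wt) and fibroblasts in which SmcHD1 was deleted after differentiation (the somatic knockout, somKO) were taken from the 2 lists of CTCF ChIP-seq peaks. A somKO peak that shared no base with any wt peak was called gained, and a wt peak that shared no base with any somKO peak was called lost. All other peaks were called retained. Of 69736 somKO peaks 15730 were gained, which is a background of 22.6%, and of 60204 wt peaks 4596 were lost, which is 7.63%. Together these made 20326 gained or lost peaks of 129940 peaks in both CTCF lists and of 418635 peaks in all 8 lists of the study.

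CTCF is a zinc finger protein that binds a long DNA motif, blocks the sliding of cohesin rings along chromatin and so sets the borders of topologically associating domains (TADs). Rad21 is the kleisin subunit that closes the cohesin ring, and its peaks mostly fall at CTCF sites. SmcHD1 is a non-canonical SMC protein that is enriched on the inactive X chromosome (Xi), where it is needed for gene silencing, CpG island methylation and the largely TAD-free folding of that chromosome. It also acts at some autosomal clusters, among them the protocadherins and certain imprinted genes.

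The wt list came from 3 CTCF libraries of 1 female clone, Wt2A1. The somKO list came from 4 libraries, 2 from each of the CRISPR clones A3-3 and D4, which carry mutations of Smchd1. All lines were F2 fibroblasts of a cross between M. m. domesticus FVB and M. m. castaneus, so their X chromosomes were unrecombined and their autosomes a mosaic of the strains. According to the methods, the knockout clones were made in another wt clone than the one in the wt list. The paper's supplement calls A3-3 and D4 triploid, and the ploidy of Wt2A1 is not given in the text. Each list was called on merged libraries with reads of the active and inactive X pooled. There was therefore 1 list per genotype, no spread between replicates and no test between genotypes, and 95% Wilson or Newcombe intervals below cover counting error only. Genotype, clone, strain mosaic and number of libraries differ together between the lists, ploidy may differ too, and these cannot be told apart. The lists hold no read counts, so the depth is unknown. CTCF peaks measure neither expression nor the Smchd1 mutation, so they check neither the fibroblast label nor the knockout: Smchd1 itself (chromosome 17) held 3 CTCF peaks in each list, all retained.

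The sequence at gained and lost sites is shown first, as examples of what such peaks hold. A CTCF motif of 13 bases was learned from 1000 high-scoring retained wt peaks of chromosome 1. Its letters were CCANNAGNGGGCN, with N where no base reached a share of 0.6. It was found in 54.6% of gained and 51.6% of retained somKO peaks, and in 36.0% of lost and 52.0% of retained wt peaks, so most lost peaks had no match. Below are matches in gained peaks among the 10 highest-ranked of gene bodies, intergenic sequence and the X chromosome, from the RefSeq sequence of mm10 (GRCm38.p6, strain C57BL/6J, so not the sequence of the clones themselves), written 5′ to 3′ with the motif in capitals. For intergenic peaks, near gives the closest protein-coding gene at any distance.
Tmem132c gained, chr5:127341345-127341373, minus strand: gagatttgCCACCAGAGGGCGctctgaag
Ajap1 gained, chr4:153378176-153378204, minus strand: ccttccggGCAGCAGGGGGCAgaatttat
Ksr2 gained, chr5:117628541-117628569, plus strand: ggcttcacCCTCAAGGTGGCGctgttggg
Cntnap5c gained, chr17:57988600-57988628, plus strand: taccaaggCCAGAAGAGGGCGacagatcc
Fry gained, chr5:150342303-150342331, plus strand: catggaggCCAGAAGAGGACGacagatcc
near Gm2012 gained, chrX:26146262-26146290, minus strand: cagacactCCAGAAGAGGGCAccacatct
near Btbd35f27 gained, chrX:5090461-5090489, plus strand: aaaatataCCACAAGGTGGCAgtaacatg

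The lost sites below are from the 10 highest-ranked lost peaks of promoters, gene bodies, intergenic sequence and the X chromosome.
Kit lost, chr5:75575751-75575779, plus strand: cccacgagCCTGTAGGTGGCGgctatggg
Sorbs3 lost, chr14:70190244-70190272, minus strand: cagacacaCCAGAAGAGGGCGtccgatct
Dach1 lost, chr14:97830053-97830081, minus strand: tcctctaaCCACTAGAGGGCAaaacatcc
near Slitrk6 lost, chr14:111149792-111149820, plus strand: ttactgtaCCAGCAGGTGGCAggattgag
near Hprt lost, chrX:52981041-52981069, plus strand: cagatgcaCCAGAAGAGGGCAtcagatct

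Several of these sites share letters beyond the motif and lie in sequence marked as repeat. The word CCAGAAGAGGGC was the commonest start of the motif match in gained peaks. Read on either strand of the 300 bases around the peak midpoint, it was in 28.6% of gained peaks (4491 of 15730; 27.9 to 29.3). It was in 17.5% of retained somKO peaks (17.2 to 17.9) and in 1.36% of windows 2 kb beside the gained peaks. The longer word CCAGAAGAGGGCNNCAGATC, which contains the first, was in 16.1% of gained peaks, 8.45% of retained somKO peaks and 0.718% of the windows beside the gained peaks. The longer word adds the commonest letters that follow the first one in gained peaks, so both were taken from the peaks they describe. In lost peaks the words were in 18.4% and 11.1%, and in retained wt peaks in 17.8% and 8.59%. In rodents, B2 short interspersed repeats are known to carry a CTCF site. The genome file marks repeats without naming families, so none is assigned here.

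Repeat sequence covered a median of 35.7% of the window at gained peaks and 18.0% at retained somKO peaks. Over 50% of the window was repeat in 42.4% of gained peaks against 26.2% of retained ones, while beside the gained peaks it was 21.8%. The motif match itself lay in repeat sequence in 76.7% of gained and 75.9% of lost peaks with a match, against 52.1% and 52.2% of retained peaks of the same lists. Much of this went with peak size. Among peaks up to 400 bp wide, over 50% repeat was found in 44.8% of gained and 45.7% of retained somKO peaks, a difference of -0.858 percentage points (-1.98 to 0.269), and the word CCAGAAGAGGGC in 30.6% and 33.1%. Lost peaks of that width were less often in repeats than retained ones, at 33.8% against 41.7%.

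Gained and lost peaks lay mostly in the lower part of their own lists. Each peak was given its percentile by the score column of its own list, where 100 is the highest score. Gained peaks had a median percentile of 16.5 and retained somKO peaks 61.2. Lost peaks had a median percentile of 7.98 and retained wt peaks 53.8. In the lowest decile of the somKO list 69.9% of peaks were gained, in the fifth decile 10.2% and in the highest decile 0.0143%, 1 peak. In the wt list 45.3% of the lowest decile was lost, 0.412% of the fifth decile and none of the 4 highest deciles. Above the 50th percentile stood 211 gained and 7 lost peaks. Gained peaks were also narrower, with a median of 253 bp against 587 bp for retained somKO peaks, and lost peaks measured 243 bp against 477 bp.

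**Figure D1:**
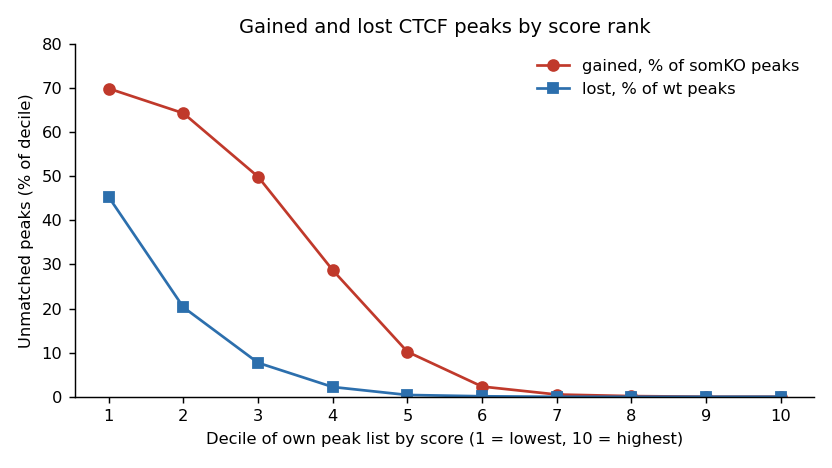
Share of peaks that were unmatched in the other list (y axis, percent) in each decile of a peak list by score (x axis, 1 lowest to 10 highest), for gained peaks in the somKO list (circles) and lost peaks in the wt list (squares). Both shares were highest in the lowest decile, 69.9% and 45.3%, and the gained share exceeded the lost share in every decile.

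The somKO list was longer by 9532 peaks, and 6597 of the peaks left out to bring it to the length of the wt list were gained. With both lists at 60204 peaks, 15.2% of somKO peaks were gained (9133) and 11.5% of wt peaks were lost (6930). Requiring 50% of both peaks to overlap gave 31.1% gained (21694) and 20.2% lost (12162). At equal length the gained peaks that stayed had a median percentile of 24.7. Many lost peaks had a somKO peak close by: 34.5% lay within 500 bp of one, and the median distance was 1183 bp. Gained peaks lay farther from wt peaks, at a median of 6348 bp with 12.8% within 500 bp. At the edge of the rule, 94 gained peaks lay within 50 bp of a wt peak and 120 retained somKO peaks overlapped one by fewer than 50 bp; both sets had a median percentile of 3.07.

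Promoters, gene bodies and intergenic sequence held gained peaks in proportions close to those of retained ones over all ranks. Within 1 kb of an annotated transcription start site lay 12.5% of gained peaks (1959) and 13.5% of retained somKO peaks, a difference of -1.06 percentage points (-1.65 to -0.463). It was -3.94 at equal list length, -4.62 as the mean over deciles of equal rank and 0.893 among peaks up to 400 bp wide. The mean over deciles is unweighted and averages opposite signs. In the lowest decile, with 4924 gained peaks, 18.0% of gained and 16.7% of retained somKO peaks were at promoters. In the seventh decile, with 36 gained peaks, these were 0% and 11.1%. Gene bodies held 49.0% and 48.9%, and intergenic sequence 38.5% and 37.5%. Of lost peaks 11.1% (511) were at promoters, against 13.5% of retained wt peaks, a difference of -2.42 that became 0.987 at equal length. Counted by gene, 6144 protein-coding genes had a CTCF peak within 1 kb of a start site in both lists, 1249 in the somKO list alone and 271 in the wt list alone. These were 16.9% of the genes with such a somKO peak and 4.22% of those with such a wt peak.

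Gained promoter peaks differed from other gained peaks in sequence and in cohesin. Only 24.6% held the motif in the 300-base window, against 59.2% of gained peaks in gene bodies and 58.5% of intergenic ones. They overlapped a somKO Rad21 peak in 71.6% of cases, against 39.9% and 38.3%. Retained promoter peaks showed the same order, with the motif in 30.0% and somKO Rad21 in 91.1%. Repeats covered over 50% of the window in 13.9% of gained promoter peaks and in 46.8% of those in gene bodies.

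The highest-ranked gained promoter peaks included Crebbp, which encodes a histone acetyltransferase (chr16:4213175-4213511, percentile 59.8), Slc30a4, a zinc transporter (57.4), Grin3a, an NMDA receptor subunit (56.4), Dpp6, a potassium channel auxiliary subunit (55.6), and Nnmt, nicotinamide N-methyltransferase (55.4). None of the 10 highest held the motif, and all 10 overlapped a somKO Rad21 peak, of which 6 also overlapped a wt Rad21 peak. The Crebbp peak was 79.3% G+C in its 300-base window.

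In gene bodies the highest gained peak lay in Lbr, which encodes the lamin B receptor of the inner nuclear membrane (chr1:181838259-181838638, percentile 77.2). It held neither the motif nor a Rad21 peak. It was followed by Ksr2, a scaffold of Ras signalling (65.2), Cntnap5c, a contactin-associated protein (65.2), Ptprn2, a phosphatase-like protein of secretory vesicles (63.9), and Cadm1, a cell adhesion molecule (63.7). Of the 10 highest 7 held the motif anywhere in the peak and 8 overlapped a somKO Rad21 peak, while 0 overlapped a wt Rad21 peak. The nearest wt CTCF peak to the Ajap1 site was 641 kb away.

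Among intergenic gained peaks, the highest of all lay 15.9 kb from Gtpbp4 (chr13:9011731-9012160, percentile 90.7) and the next 32.5 kb from Epm2a (87.6). Neither held the motif or overlapped Rad21. The Gtpbp4 window was 84.3% repeat, so the place of its reads is uncertain, and the Epm2a peak was 201 bp wide. Of the next 8, 3 surrounded Tbx5, a T-box transcription factor of heart and forelimb. They stood at 65.6 kb (percentile 78.5), 42.8 kb (77.8) and 65.1 kb (73.3) from the gene, and all held the motif in the peak. Of the 10 highest intergenic gained peaks 8 overlapped a somKO Rad21 peak and 0 a wt Rad21 peak.

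The highest lost peaks stood lower in their list. At promoters these were Lrrc7, a postsynaptic density protein (chr3:158561626-158562474, percentile 59.6), Gm10718 (55.7), Afap1l2 (51.6) and Kit, the receptor of stem cell factor (46.5). The Gm10718 window was 100.0% repeat, so the place of its reads is uncertain. Of the 10 highest 7 overlapped a wt Rad21 peak and 2 a somKO Rad21 peak. In gene bodies, Asap1 (54.1) and Anapc7, a subunit of the anaphase-promoting complex (53.6), came first, and Sorbs3, an adhesion adaptor, stood at 51.4. Of the 10 highest 7 overlapped wt and 4 somKO Rad21, while among intergenic lost peaks these were 9 and 9. Of the 10 highest lost peaks in gene bodies 4 lay on chromosome 14, as did 4 of the 10 highest intergenic ones. Among gained peaks, 4 of the 10 highest in gene bodies and 4 of the 10 highest intergenic ones lay on chromosome 5.

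Rad21 peaks, which the rule did not use, were found at gained, lost and retained CTCF peaks more often in the somKO than in the wt list. Over all ranks, 43.2% of gained peaks overlapped a Rad21 peak of the somKO clones and 22.0% a Rad21 peak of wt. For retained somKO peaks these were 83.5% and 71.7%. Since Rad21 overlap rises with the rank of the CTCF peak, the comparison was repeated within deciles of the list. In the sixth decile of the somKO list, the 162 gained peaks overlapped somKO Rad21 in 78.4% and wt Rad21 in 28.4%, whereas retained peaks did so in 84.3% and 67.2%. The mean difference between gained and retained peaks over the 7 deciles with at least 20 gained peaks was -12.0 percentage points for somKO Rad21.

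Lost peaks showed the opposite order in the fourth and the fifth decile, which hold few of them. In the fourth decile of the wt list, the 132 lost peaks overlapped wt Rad21 in 56.8% and somKO Rad21 in 53.0%, and retained peaks did so in 50.4% and 72.7%. In the fifth decile, 20 of the 25 lost peaks overlapped wt Rad21 and 15 somKO Rad21. In the lowest decile, which held 2737 of the 4596 lost peaks, wt Rad21 was found at 21.5% of lost and 34.4% of retained wt peaks and somKO Rad21 at 39.6% and 54.7%. Over all ranks lost peaks overlapped somKO Rad21 in 40.3% (1853 of 4596) and wt Rad21 in fewer cases (1150 of 4596), so the excess of somKO over wt Rad21 was not particular to gained peaks. Retained wt peaks overlapped wt Rad21 in 71.1%. The unweighted mean difference over 5 deciles, -0.249 percentage points, averages the lower lost shares of the lowest deciles and the higher ones of the fourth and the fifth. The Rad21 lists differ in length too, with 67655 wt and 89974 somKO peaks from 2 and 4 libraries, and retained wt CTCF peaks also overlapped the somKO list more often, in 83.1%.

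**Figure D2:**
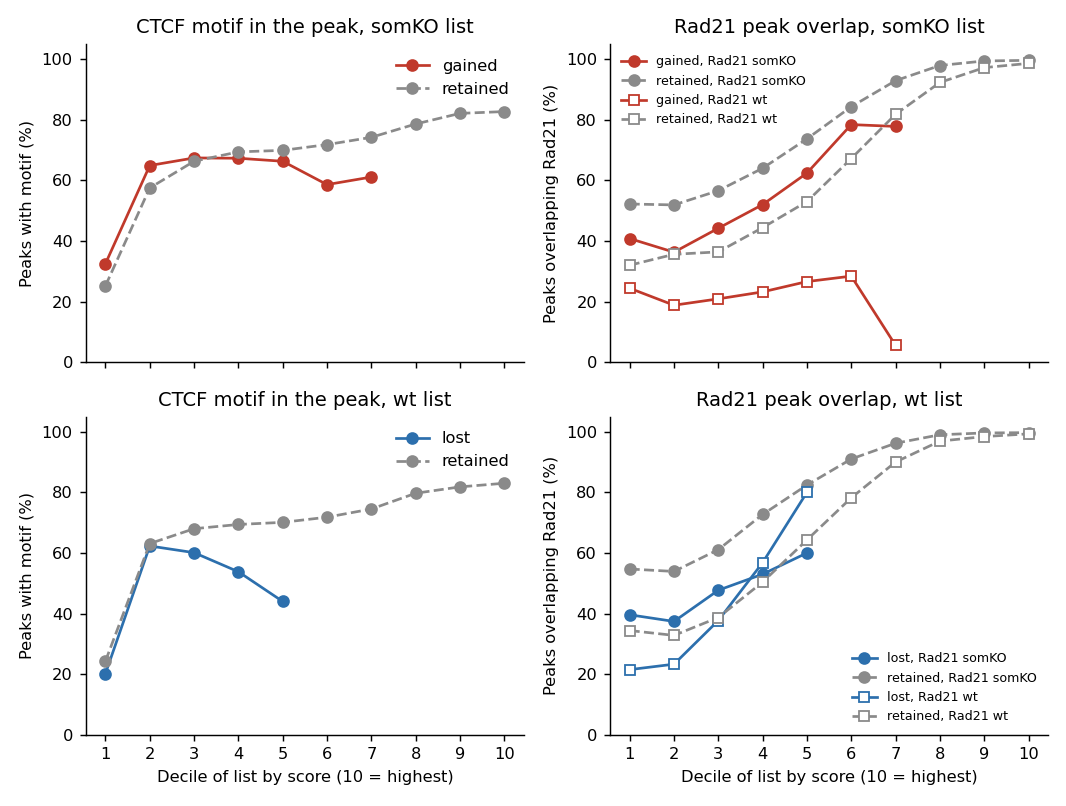
Share of CTCF peaks that hold the motif anywhere in the peak (left, percent) or overlap a Rad21 peak of somKO (filled) or wt (open) cells (right, percent), by decile of the somKO list (top) or wt list (bottom). Solid lines are gained or lost peaks in deciles with at least 20 of them and dashed lines retained peaks; in the sixth decile, gained peaks had wt Rad21 in 28.4% and retained peaks in 67.2%.

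The difference in CTCF motif between unmatched and retained peaks changed with rank. The shares given above are for the 300-base window, where 5% of flanking windows of the wt list set the threshold. Searched over the whole peak, it was in 55.6% of gained and 72.4% of the wider retained somKO peaks, so the sign of the gained difference depends on the length searched. In the lowest decile, 32.0% of gained and 22.6% of retained somKO peaks held it in the window, and in the second decile 64.2% and 54.1%. These deciles held 4924 and 4480 gained peaks. In the sixth decile the order was the other way, with 54.9% of 162 gained and 62.7% of retained peaks. The unweighted mean difference over deciles was 0.855 percentage points in the window and -2.31 over the whole peak, and it averages these opposite signs. For lost peaks the mean differences were -9.49 and -10.9, which rest on the thinly filled higher deciles. The lowest decile, with 2737 lost peaks, had 19.9% of lost and 22.1% of retained wt peaks with the motif, the second 61.2% and 59.8%, and the fourth, with 132 lost peaks, 53.0% and 65.3%. Over all ranks the lost difference was -16.0 percentage points, and it was 0.298 with a score of at least 50 and -0.981 where peaks up to 500 bp apart counted as shared.

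Peaks of wt SmcHD1 ChIP-seq rarely coincided with gained or lost CTCF peaks. They overlapped 1.85% of gained and 2.35% of retained somKO peaks, and 1.13% of lost and 2.21% of retained wt peaks. Among peaks up to 400 bp wide the order of the gained difference was the other way. There 1.39% of gained and 0.866% of retained somKO peaks overlapped one, a difference of 0.521 percentage points (0.283 to 0.767). For lost peaks of that width the difference was -0.132 (-0.437 to 0.248). Of the 10 highest-ranked gained peaks of each set, 3 intergenic, 1 gene-body, 0 promoter and 1 X peak overlapped an SmcHD1 peak. The 3 intergenic peaks (Tbx5 and Castor2) and the gene-body peak (Fry) all lay on chromosome 5. For lost peaks these were 0, 0, 1 and 1. On the X chromosome 4.73% of gained (31 of 655) and 7.69% of retained somKO peaks overlapped one, and 23.1% of gained (20.0 to 26.4) against 20.1% of retained somKO peaks (18.3 to 22.0) lay within 10 kb of one. On autosomes 7.71% of gained and 6.35% of retained somKO peaks lay within 10 kb of one.

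The X chromosome, on which the study centres, gained a larger and lost a smaller share of CTCF peaks than the mean autosome, and both shares lay within the range of the autosomes. Of 2450 somKO peaks on the X 655 were gained, 26.7%, against a mean of 22.2% ± 3.53 (SD, n = 19 autosomes). Chromosome 8 stood higher, at 32.5%. Of 1942 wt X peaks 102 were lost, 5.25%, against 7.59% ± 1.90 on autosomes, which ranged down to 4.68%. The X thus differed by 1.28 and -1.23 autosome SDs. At equal list length the X gained 18.9% against 15.0% ± 2.55 and lost 7.78% against 11.4% ± 2.66, the lowest share of lost peaks of the 20 chromosomes. Where 50% of both peaks had to overlap, the lost share of the X minus the autosome mean was 2.57 percentage points, or -1.14 to 6.28 at 1 SD of the autosomes on either side.

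**Figure D3:**
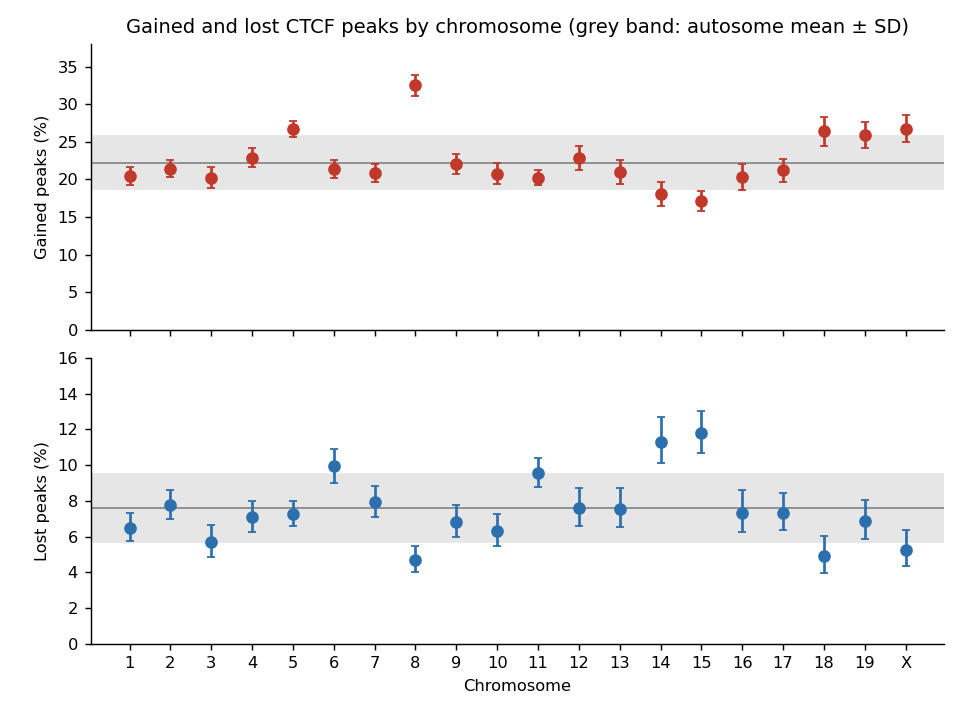
Gained peaks as percent of somKO peaks (top) and lost peaks as percent of wt peaks (bottom) for each chromosome, with 95% Wilson intervals; the line and grey band are the mean and SD of the 19 autosomes. The X chromosome stood at 26.7% gained and 5.25% lost, and chromosome 8 at 32.5% gained.

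Gained peaks on the X were more often intergenic and less often at promoters than autosomal ones, as were retained peaks. Promoters held 8.24% of them (54 of 655) against 13.2% ± 2.23 over the autosomes. Retained somKO peaks differed in the same way, with 9.69% at promoters on the X and 13.7% on autosomes. Gained peaks were in intergenic sequence in 56.0% on the X and 37.7% on autosomes. For retained somKO peaks these were 49.8% and 37.1%. Rad21 of somKO overlapped 37.9% of gained X peaks and 85.2% of retained ones, and wt Rad21 13.3%. A CpG, the dinucleotide whose methylation is known to weaken CTCF binding, was in the motif match of 17.7% of gained X peaks with a match (61 of 345) and of 26.6% of retained ones (254 of 954), a difference of -8.94 percentage points (-13.6 to -3.80). On autosomes the shares were 25.7% and 28.1%. Among peaks up to 400 bp wide the gained difference was -7.95 percentage points (-14.5 to -1.39) on the X and 1.14 (-0.132 to 2.41) on autosomes. A lower CpG share was not particular to gained X peaks. At lost autosomal peaks it was 17.7% against 28.4% of retained wt ones, a difference of -10.7 percentage points (-12.5 to -8.66), and of -7.81 (-9.76 to -5.72) among peaks up to 400 bp wide. Lost X peaks had 32.4% (12 of 37) against 26.1%, a difference of 6.30 (-6.79 to 22.6). Counted by gene, 39 X-linked protein-coding genes had a promoter peak in the somKO list alone, 4 in the wt list alone and 143 in both. The somKO-only genes were 21.4% of X-linked genes with a somKO promoter peak, against 16.9% over all protein-coding genes. The wt-only genes were 2.72% of X-linked genes with a wt promoter peak, against 4.22%.

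The 10 highest gained X peaks ranged from percentile 49.2 to 75.5. The first lay 54.4 kb from Gm2012 in a window that was 100.0% repeat, the second 19.5 kb from Gm16430 (65.4) and the third in Slx (59.5), a gene expressed in male germ cells. Slx belongs to an X-linked multicopy family, so reads there may be split between near-identical copies. Then came intergenic peaks 30.8 kb from Ssxb8 (53.8), 273 kb from Tex13c3 (52.8) and 136 kb from Btbd35f27 (51.5). Whether reads at these peaks were split between copies was not tested. The next lay near Gpc4, a glypican (51.1), and Bcor, a corepressor that works with Polycomb (50.5). Of the 10 highest 8 overlapped somKO Rad21 and 1 wt Rad21. Among lost X peaks the highest was 7.05 kb from Hprt, at percentile 33.8.

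Loci known to shape the folding of the X were listed as a group. At 9 of 10 listed loci found in the annotation, 8 of 54 somKO peaks were gained, 14.8% (7.70 to 26.6), against 26.7% of the whole X, and 2 of 50 wt peaks were lost, 4.00% against 5.25%. At equal list length 5 of 51 were gained (9.80%; 4.26 to 21.0), an interval that includes the 18.9% of the X. Xist, the RNA that coats the Xi, held 2 gained peaks in its gene the higher at percentile 27.5, and both also lie in Tsix, its antisense partner. It lost 1 peak 1.70 kb downstream, at percentile 2.56. Firre, a repeat locus that contacts Dxz4, gained 1 peak 2.67 kb upstream and lost 1 in the gene, with 19 wt and 18 somKO peaks in all. The transcript 4933407K13Rik, which spans Dxz4, the hinge between the Xi megadomains, gained 3 peaks, at percentiles of 8.82 or less, and lost 0 of 12. The motif matches of the gained peaks at Xist and Firre are given because the Firre match begins with the word CCAGAAGAGGGC and the Xist matches do not.
Xist gained, chrX:103471172-103471200, plus strand: cctgtgtgCCAGAAGAGGGAGtcagacgt
Xist gained, chrX:103481726-103481754, plus strand: gaaagaaaCCACTAGAGGGCAggtcacat
Firre gained, chrX:50637852-50637880, plus strand: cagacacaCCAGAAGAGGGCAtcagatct

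Genes that escape X inactivation had few gained peaks, 6 of 49 (12.2%; 5.73 to 24.2) against 26.7% over the whole X. At equal list length it was 5 of 44 (11.4%; 4.95 to 24.0), an interval that includes the 18.9% of the X. Of the 6 peaks 4 belonged to Mid1, a microtubule-associated ubiquitin ligase gene, the highest of them 4.07 kb upstream at percentile 43.2 with Rad21 in both genotypes. Kdm6a, an H3K27 demethylase gene, gained 1 peak 7.17 kb downstream and lost 1 in the gene.

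By position, gained and lost peaks were not spread evenly over the autosomes. Of 443 windows of 5 Mb with at least 50 somKO peaks, the median gained share was 21.9%. The highest were chrX:145000001-150000000 with 43.5% (27 of 62; 31.9 to 55.9), chr8:110000001-115000000 with 40.2% (100 of 249) and chr8:5000001-10000000 with 39.6% (21 of 53). On chromosome 8 every 10 Mb window stood between 29.2% and 37.1%. Chromosome 5 held 6200 of the 69736 somKO peaks, and 26.7% of them were gained. Among its somKO peaks above the 50th percentile 1.57% were gained, the highest such share of any chromosome. The 3 highest lost shares were on chromosome 14: chr14:100000001-105000000 with 26.7% (16 of 60), chr14:120000001-124902244 with 25.8% (17 of 66) and chr14:70000001-75000000 with 22.9% (25 of 109), against a median of 7.25% over 423 windows.

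Chromosome 14 changed along its length. Up to 60 Mb, 22.9% of its somKO peaks were gained and 6.31% of its wt peaks lost. Beyond 60 Mb, 6.93% were gained (50 of 722; 5.29 to 9.01) and 19.7% lost (163 of 828; 17.1 to 22.5). The lost peaks there also ranked higher, with a median percentile of 20.8 against 5.99 before 60 Mb, and 48.5% against 24.1% held the motif. They overlapped wt Rad21 in 41.7%. The place of the split was chosen after the windows were seen.

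The Rad21 lists, from other chromatin of the same lines, showed these regions as well. Beyond 60 Mb of chromosome 14, 13.2% of somKO Rad21 peaks had no wt counterpart and 26.3% of wt Rad21 peaks had no somKO counterpart, against 38.8% and 5.62% before it. On chromosome 8 the Rad21 shares were 50.4% and 2.82%, the highest gained and the lowest lost share of the 19 autosomes (mean 37.4% ± 4.54 and 7.27% ± 2.42, SD). For the X they were 38.7% and 5.40%. DNA copy number, which the peak lists do not give, was not tested.

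**Figure D4:**
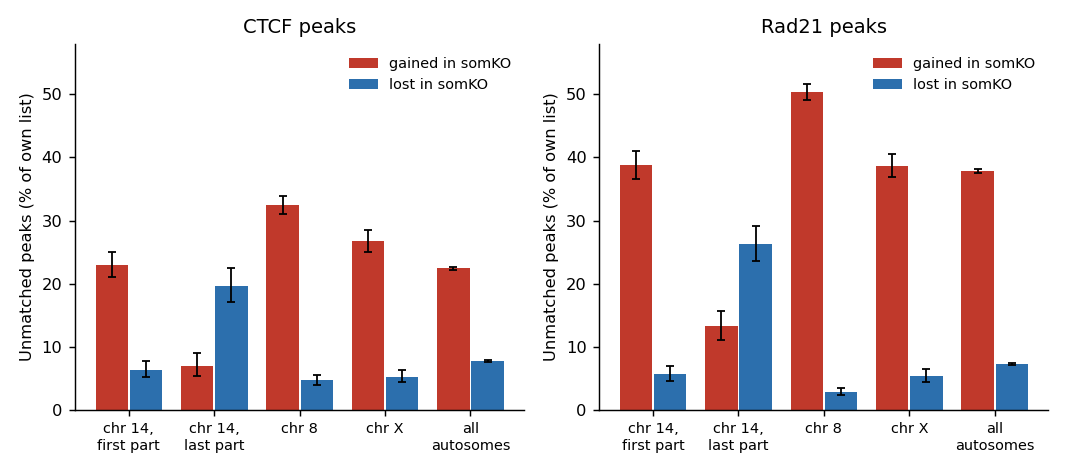
Gained (red) and lost (blue) shares, as percent of the somKO and wt list, for CTCF (left) and Rad21 (right) on chromosome 14 up to and beyond 60 Mb, chromosome 8, the X and all autosomes; error bars are 95% Wilson intervals. The last part of chromosome 14 was the only region drawn where the lost share exceeded the gained share, 19.7% against 6.93% for CTCF.

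Some genes gained several CTCF peaks together. Of 21755 protein-coding genes, 39.9% had a gained peak in the gene or within 10 kb and 16.6% a lost one. Fry, a gene of cell morphology and mitosis on chromosome 5, gained 27 of its 53 somKO peaks and lost 0 of 27 wt peaks, and 9 of the gained ones followed each other without a retained peak between. Mtus2, a microtubule-binding protein gene on the same chromosome, gained 19 of 45, Csmd1, a complement-control protein of neurons on chromosome 8, 14 of 28, Asic2, an acid-sensing ion channel gene, 14 of 35, and Caln1, a neuronal calcium-binding protein gene, 13 of 26. The models Gm20388 (119 of 381) and Fgfr2 (24 of 126) were the first and the third in this order but span 4435 kb and 2961 kb, many other genes included. The longest run of gained peaks without a retained one held 11 peaks over chr4:152767377-153975391, around Ajap1, an adherens junction protein gene.

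Lost peaks, a smaller share of their list, made shorter runs, and clustering was not tested. After Gm20388 and Fgfr2, the genes with most lost peaks were Mapre3, a microtubule plus-end protein gene, with 6 of 11 wt peaks, Kif13b, a kinesin gene on chromosome 14, with 5 of 9, and Xrcc6, which encodes the Ku70 DNA repair protein, with 5 of 11. Mapre3 also gained 3 peaks. Sorbs3 lost 4 of 7 and gained 0 of 3. Of the 6 longest runs of lost peaks, each of 4 peaks, 4 lay on chromosome 14 beyond 60 Mb, at Rbm26, Klf5, Kctd12 and a predicted gene.

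Among 10 lists of genes, the neural genes had the largest share of gained peaks. In the gene and 10 kb on either side, 61 of their 192 somKO peaks were gained, 31.8% (25.6 to 38.7), in 14 of 20 genes. The same chromosomes taken whole gave 23.0%. Csmd1 gave 14 of the 61 and the splicing factor genes Rbfox3 and Rbfox1 9 and 7, followed by the synaptic genes Cntnap2 with 8 and Dlg2 and Nrxn3 with 5 each. Without Csmd1 the share was 28.7%, with an interval (22.3 to 36.0) that included the 23.0%, and at equal list length 22.2% (16.5 to 29.0), against 15.2% of all peaks. Only 2 of the 61 were at promoters. Long genes as a class gained slightly more over the full lists. The shares were 24.6% of somKO peaks in protein-coding genes of 500 kb and over and 21.6% in those under 50 kb. Without chromosome 8 they were 23.1% and 20.9%. At equal list length 18.2% of somKO peaks in genes of 500 kb and over were gained, against 15.2% of all peaks. The neural interval at equal length, 16.5 to 29.0, includes this 18.2%. Over the full lists the neural interval, 25.6 to 38.7, lies above the 24.6% of genes of 500 kb and over, and without Csmd1 (22.3 to 36.0) it includes it. The neural counts take in 10 kb on either side of the gene and those by gene length do not, so they are not like for like. Whether gene length goes with the neural share was not tested.

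**Figure D5:**
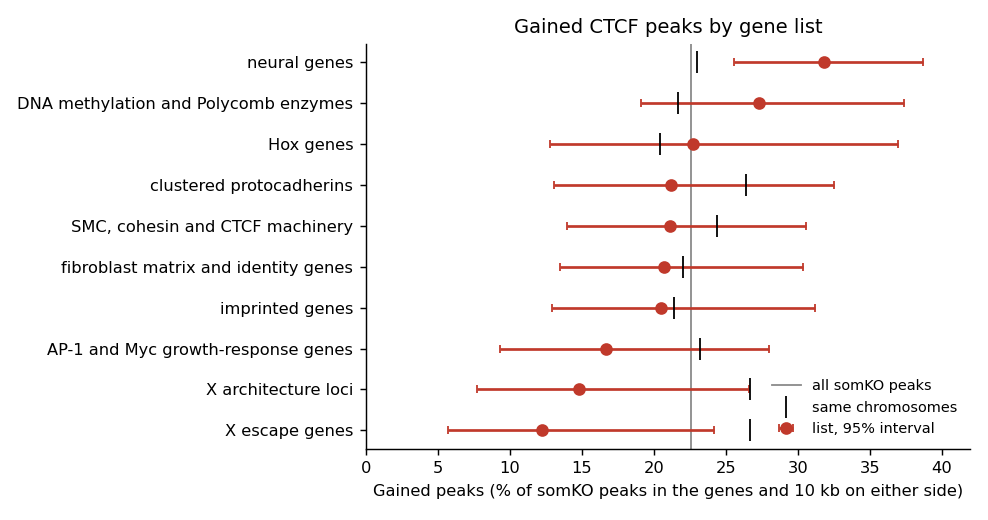
Gained peaks as percent of the somKO CTCF peaks in the genes of each list and 10 kb on either side (points, 95% Wilson intervals), with the share over all somKO peaks (grey line) and the mean share of the chromosomes the list's peaks lie on (black ticks). The neural genes stood at 31.8%, and the interval of the X escape genes, at 12.2%, lay below the share of the X.

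The genes of DNA methylation and Polycomb repression gained 24 of 88 peaks, 27.3% (19.1 to 37.4), an interval that includes the 22.6% of all somKO peaks. At equal list length they gained 12 of 74 (16.2%), against 15.2% of all peaks. Tet1, an enzyme that oxidises methylated cytosine, gained 6 of 15, the highest at percentile 41.2, and Dnmt3a, a de novo methyltransferase gene, 3 of 8. The genes of SMC proteins, cohesin and CTCF gained 19 of 90 (21.1%) and lost 12 of 82 (14.6%; 8.57 to 23.9), against 7.63% of all wt peaks. Ctcfl, the germline paralogue of Ctcf, gave 4 of these 12, none above percentile 4.86. The clustered protocadherins, cell-surface proteins whose promoters are chosen through CTCF, gained 14 of 66 peaks (21.2%; chromosome 18 as a whole 26.4%) and lost 0 of 54 (0 to 6.64, which includes the 4.89% of chromosome 18). The highest gained one was at the promoter of Pcdhga6, percentile 56.7, with somKO Rad21 and without the motif. The Hox genes gained 10 of 44 (22.7%) and lost 4 of 38.

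Imprinted genes gained 15 of 73 peaks (20.5%) and lost 5 of 68. Igf2r and the antisense transcript Airn that silences it had 6 gained peaks between them, 1 of which lies within 10 kb of both, with a highest percentile of 34.9. H19 lost 2 of 4 peaks. One was in the gene and the other 5.15 kb upstream (percentile 2.56), and both overlapped somKO Rad21. Sgce and Peg10 shared 2 gained peaks. Snrpn, in the imprinted cluster of chromosome 7, gained its sole peak at percentile 25.7, 229 kb from the nearest wt peak. The genes of fibroblast matrix and identity gained 18 of 87 (20.7%) and lost 6 of 77, and the AP-1 and Myc growth-response genes gained 10 of 60 (16.7%) and lost 4 of 56. The intervals of these lists included the background of 22.6%.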

How the data were processed

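CTCF, Rad21 and SmcHD1 ChIP-seq reads had been aligned by the authors with bowtie2 to mm10 masked at strain SNPs, and narrow peaks were called with MACS2 at q < 0.05 on merged replicates. The deposited lists give positions and, in column 5, a score that was taken as MACS2's 10 times −log10 q (lowest value 13) and used for ranks within a list only. Of 8 lists 5 were used (CTCF and Rad21 of wt and somKO, SmcHD1 of wt). No read counts were given, so depth is unknown. Overlaps were computed with numpy 2.4.6 and pandas 2.3.3, intervals with statsmodels 0.14.6, and sequences read with pysam 0.24.0. Genes were those of GENCODE M21 (basic). The motif search counted a match where the score reached the level of 5% of windows 2 kb away. The overlap and motif functions were tested on simulated data. Named peaks were the 10 highest by percentile in each class and on the X, the 10 genes with most gained or lost peaks, and members of the gene lists; fewer are named. Other overlaps, list lengths, score minimums, motif thresholds and peak widths were tried as alternatives. Gained and lost peaks, gene lists and rules were chosen with earlier results of these data known. No p-value was computed.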

Additional observations from a re-analysis of the deposited data

How the results depend on the processing

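No paired analysis was possible because each genotype has 1 list from merged libraries, and for the same reason no replicate could be left out. Of 62 alternative values for differences between peak sets or chromosomes, 53 kept their direction. Alternatives by peak width, by chromosome and with the motif anywhere in the peak, and the promoter shares at equal rank, were chosen after seeing the data. Changes are in the order gained, lost. The shares of gained and lost peaks became 31.1% and 20.2% where 50% of both peaks had to overlap, 19.7% and 5.00% where peaks up to 500 bp apart counted as shared, 15.2% and 11.5% at equal length and 21.0% and 4.67% with a score of at least 50; without chromosome 8 the gained share was 21.9%. The lost share on the X minus autosomes reversed to 2.57 with 50% overlap. Differences from retained peaks, in percentage points, follow. With 50% overlap, promoters gave -0.148 and 0.266 (reversed), the motif -6.05 (reversed) and -14.3, and Rad21 -31.6 and -28.1. With 500 bp allowed, lost promoters gave -1.08, the motif 9.79 and -0.981, and lost Rad21 -44.7. At equal length, promoters gave -3.94 and 0.987 (reversed), the gained motif 12.5 and lost Rad21 -44.4. With a score of at least 50 the motif gave 7.77 and 0.298 (reversed) and lost Rad21 -43.8. Among peaks up to 400 bp wide, promoters gave 0.893 (reversed) and -0.867, the motif -8.75 (reversed) and -26.4, and Rad21 -23.5 and -26.4. At equal rank, promoters gave -4.62 and -0.955, the motif 0.855 and -9.49, and Rad21 -12.0 and -0.249. The lost promoter mean averages lower lost shares in the first to the fourth decile and a higher one in the fifth. The fifth decile, with 25 lost peaks, had 28.0% of lost and 11.7% of retained wt peaks at promoters. The stricter motif threshold gave 4.63 and -1.94, the motif anywhere in the peak -16.9 (reversed) and -34.3, and the motif anywhere in the peak at equal rank -2.31 (reversed) and -10.9. Rad21 midpoints within 250 bp gave -19.5 and -29.1. The cause of these changes was not tested.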
